A study of Mus musculus with 2 samples.

Results

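Interferon-stimulated antiviral genes encode the proteins with which a cell resists viral replication once type I interferon has been sensed. The 42 genes described here were chosen by name as members of known effector families. The rule uses no measured value, but the list was drawn up with earlier results of these data known. They are Ifit1, Ifit2, Ifit3, Ifit3b, Oas1a, Oas1g, Oas2, Oas3, Oasl1, Oasl2, Mx1, Mx2, Ifitm2, Ifitm3, Ifitm6, Bst2, Ly6e, Isg15, Usp18, Herc6, Trim25, Parp9, Parp14, Dtx3l, Eif2ak2, Adar, Isg20, Apobec3, Samhd1, Trex1, Rsad2, Cmpk2, Ifi44, Ifi27, Ifi35, Trim30a, Samd9l, Xaf1, Sp100, Rtp4, Lgals3bp and Rnf213. Of these, 41 are among the 21938 protein-coding genes of the annotation, and Mx2 is annotated as a polymorphic pseudogene. The other 21897 protein-coding genes form the comparison set.

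Trimethylation of histone H3 at lysine 4, H3K4me3, was located by chromatin immunoprecipitation with sequencing (ChIP-seq) in macrophages grown from bone marrow of C57BL/6J mice. All samples belong to 1 group without stimulation, with 2 biological replicates and 10 ng of starting DNA in each. Both replicates carry the same donor entry and the labels do not say that they came from separate animals, so the spread between them may be technical. With no other condition measured, the comparisons are between genes within these libraries, and no p-value is given.

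H3K4me3 sits on nucleosomes flanking transcription start sites that are active or held ready for use, and it is most regular at promoters rich in CpG dinucleotides. Type I interferon acts through its receptor and the kinases JAK1 and TYK2 on a transcription factor complex that includes STAT2 and IRF9 and binds the interferon-stimulated response element (ISRE) in the promoters of these genes. Macrophages are known for tonic interferon signalling and for a strong antiviral response on infection. RNA was not measured, so the values below describe the promoter mark and not transcription.

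Depth is unknown, because the peak lists hold no read counts. The list of replicate 1 had 20031 peaks and that of replicate 2 had 16376. All 10 macrophage marker genes examined (Csf1r, Adgre1, Itgam, Cd68, Mertk, Spi1, Cebpa, Cd14, Lyz2 and Fcgr1) carried a promoter peak in both replicates. None of the 4 T cell (Cd3e, Cd3g, Cd4 and Cd8a), 4 neutrophil (Ly6g, Elane, Mpo and S100a8) and 4 fibroblast markers (Col1a1, Col1a2, Pdgfra and Dcn) carried a peak in either replicate.

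A gene counted as marked if both replicates' lists held a peak overlapping, by at least 1 bp, the stretch from 1000 bp before to 1000 bp after any of its transcript starts, called its window here. Of the 42 antiviral genes 41 were marked, compared with 10829 of the 21897 other coding genes (49.5%). The exception was Ifi44, a gene named for its induction by interferon, which had a peak in replicate 1 and none in replicate 2. Its peak in replicate 1 was 859 bp wide with a fold of 5.23, and the nearest peak of replicate 2 lay 441678 bp from its starts. Ifi44 was nevertheless marked in the list that the authors called on pooled alignments and in their replicated list.

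The promoters of these genes were poor in CpG dinucleotides. The CpG ratio, the number of CpG observed over the number that the base composition would give, was measured from 1000 bp before to 1000 bp after each gene's 5′ end. Its median was 0.239 at the antiviral genes, against 0.475 at the other coding genes and 0.625 at the other coding genes that were marked. When all coding genes were divided into 5 equal groups by this ratio, 31 of the 42 antiviral genes fell in the 2 lowest quintiles and 0 in the highest.

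Antiviral genes were marked in nearly every case within each quintile that held them, whereas the share of other genes marked was smaller the lower the ratio. In the lowest quintile, with ratios up to 0.176, 13 of 13 antiviral genes were marked, against 298 of 4376 other coding genes (6.81%). The next quintile, up to 0.356, had 17 of 18 antiviral genes marked, against 22.3% of the other genes. In the middle quintile, up to 0.556, the figures were 8 of 8 and 58.9%. The fourth quintile, up to 0.695, had 3 of 3 marked, against 76.7%, and the highest quintile held no antiviral gene and 82.4% of its other genes were marked. Weighted by the number of antiviral genes in each quintile, the share of other genes marked was 28.4%. Marking at low ratios was not particular to antiviral genes. The macrophage markers Adgre1, Lyz2 and Fcgr1 in the lowest quintile were also marked, as were Csf1r, Itgam, Cd68 and Spi1 in the next.

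**Figure D1:**
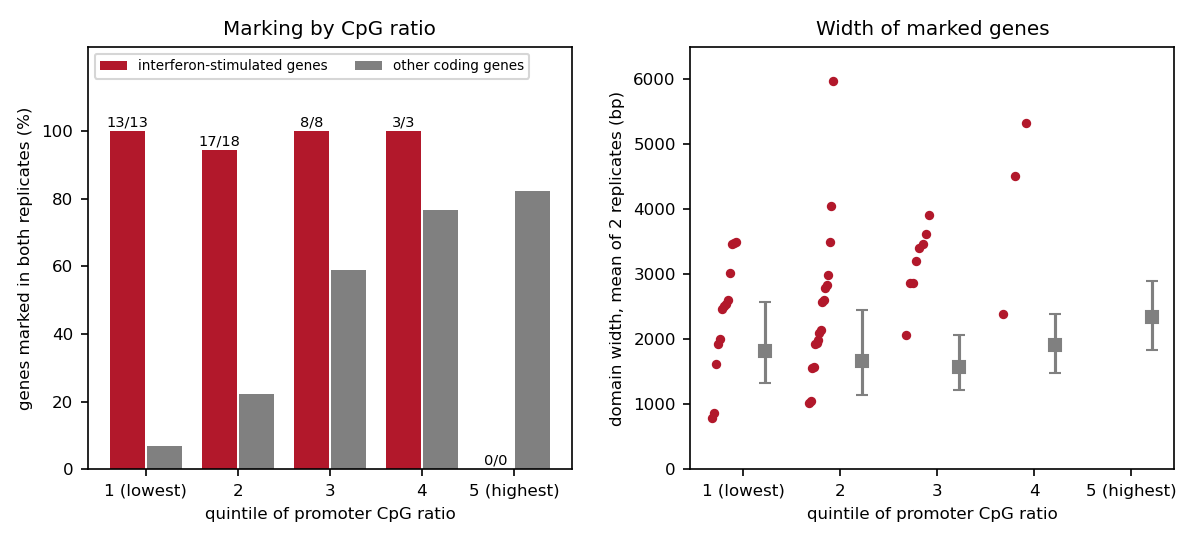
Marking and domain width by quintile of promoter CpG ratio. Left, percentage of genes with a peak in both replicates, antiviral genes in red (marked over total printed above each bar) and other coding genes in grey; in the lowest quintile the bars stand at 13 of 13 and 6.81%. Right, domain width in bp of each marked antiviral gene (red points, mean of 2 replicates) beside the median and interquartile range of the other marked genes (grey square and bar); all 8 antiviral genes of the middle quintile lie above the grey median of 1567.5 bp.

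Marked antiviral genes had a larger median domain width than the other marked genes. Peaks at most 1000 bp apart were joined into domains, and each replicate's value for a gene is its widest domain that touches a window. The median width was 2608 bp over the 41 marked antiviral genes, against 1945.5 bp over the 10829 other marked genes, and 32 of the 41 lay above the median of the other genes. Wide domains were not particular to them, as the 10 macrophage markers had a median of 3020.75 bp. In replicate 1 alone the antiviral median was 2889 bp and in replicate 2 it was 2163 bp. Replicate 1 gave the wider domain at all 41 genes, by a median ratio of 1.22, against 1.19 at the other genes. The SD of the 2 antiviral replicate medians, 513 bp, holds this shift between the lists. The other genes share it, so that SD does not measure the spread of the difference between the gene sets. Over genes marked in replicate 1, the antiviral and other medians were 2881.5 and 2066 bp. Over those marked in replicate 2 they were 2163 and 1739 bp.

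Against other marked genes of the same CpG quintile, the antiviral domains were wider in each quintile. The medians were 2514.5 bp for antiviral genes and 1823.75 bp for other genes in the lowest quintile, and 2142 bp and 1660.5 bp in the next. In the middle quintile they were 3304.5 bp for antiviral genes and 1567.5 bp for other genes, and in the fourth 4511 bp and 1904.5 bp. The fourth quintile rests on Samhd1, Trim25 and Adar, and without replicate 1 its antiviral median was 2629 bp, against 1727.5 bp for other genes. Adar is placed there by its first start, although its widest domain lies at a start with a CpG ratio of 0.309. Of the marked antiviral genes, 10 of 13, 13 of 17, 8 of 8 and 3 of 3 exceeded the median of the other genes in these quintiles, in the same order. Widths nonetheless covered a wide span, with 11 of 41 antiviral genes under 2000 bp, against 52.6% of other marked genes, and 4 above 4000 bp, against 4.67%. In replicate 1 alone 6 of 41 were above 4000 bp, against 7.52% of other marked genes. In replicate 2 alone it was 2 of 41 (Rnf213 and Trim25), against 3.15%, which is near the background.

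**Figure D2:**
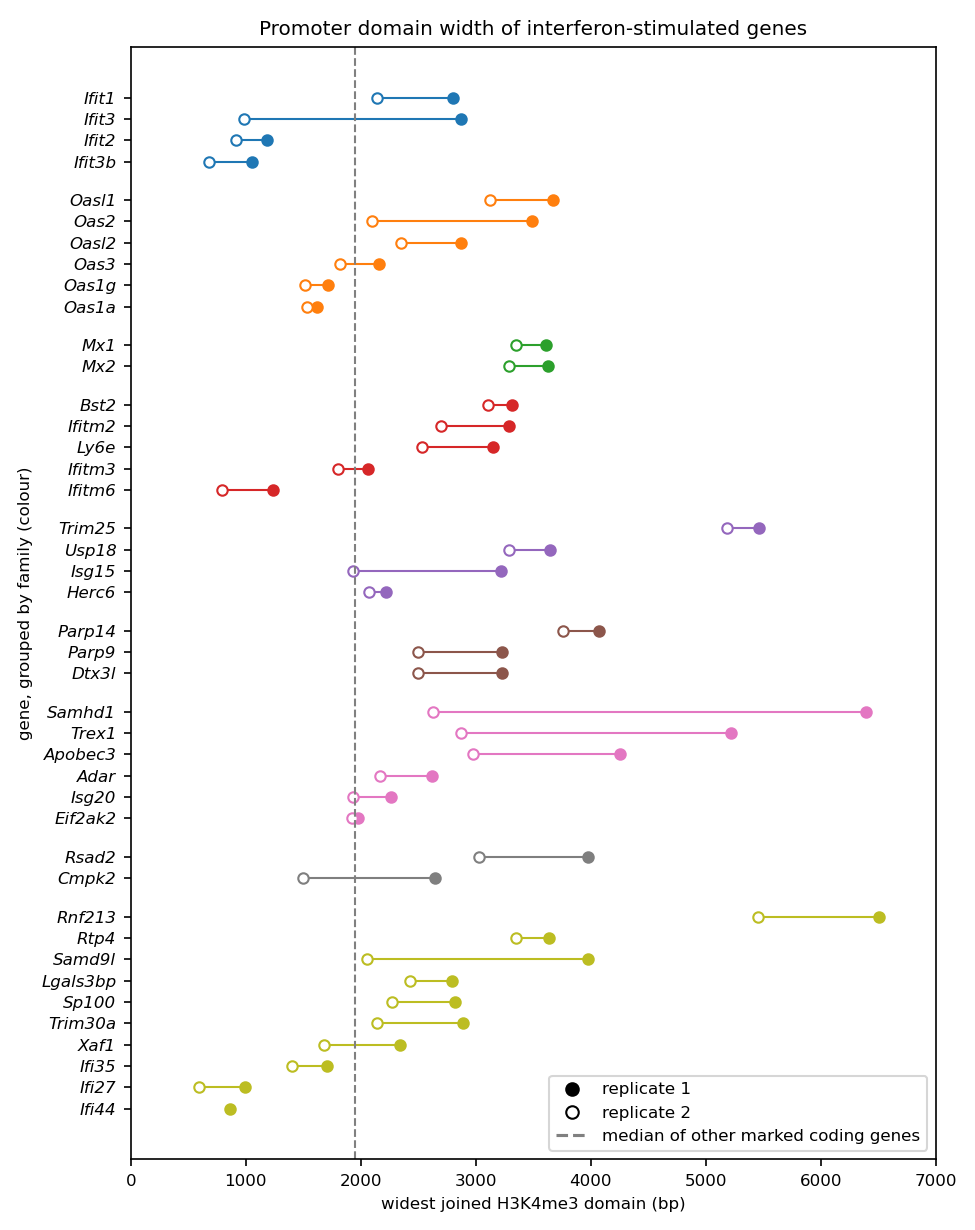
Width in bp of the widest joined H3K4me3 domain at each antiviral gene, grouped by family, in replicate 1 (filled points) and replicate 2 (open points), with the median of other marked coding genes as a dashed line at 1945.5 bp. Rnf213, Samhd1, Trim25 and Trex1 lie farthest to the right in replicate 1, at 5217 bp or more, Ifit3b, Ifi27 and Ifi44 lie near or below 1000 bp, and Ifi44 has no point for replicate 2.

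The fold that the authors' peak caller gave each peak is a second measure of the mark. The lists do not say against what it was taken, so the highest fold at a gene was ranked as a percentile among the coding genes marked in the same list, with 100 the highest. The median percentile, averaged over the replicates, was 60.2 for antiviral genes and 52.1 for other marked genes, and 24 of 41 antiviral genes lay above the second value. This difference was small and it depended on the list used: in the authors' replicated list the medians were 52.8 and 50.1. Within CpG quintiles the median percentiles of antiviral and other genes were 39.4 and 33.7 in the lowest, 65.0 and 35.7 in the next, 70.5 and 50.9 in the middle and 92.3 and 56.97 in the fourth.

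Within the antiviral genes, a higher CpG ratio went with a higher fold. Across the 41 marked antiviral genes Spearman's rho between the ratio and the fold percentile was 0.58, against 0.08 across the 10829 other marked genes. The 2 sets cover unlike ranges of the ratio, as no antiviral gene lies in the highest quintile. The other genes' median percentile also rose, from 33.7 in the lowest quintile to 56.97 in the fourth, and was 53.4 in the highest. A rise with the ratio was therefore not particular to antiviral genes. Between the ratio and domain width it was 0.33 for antiviral genes and 0.32 for other genes. The percentiles of the 2 replicates had a rho of 0.95 over antiviral genes and 0.96 over other genes. These are correlations across genes of the same 2 libraries, which are not independent replicates, and they are given as descriptions.

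**Figure D3:**
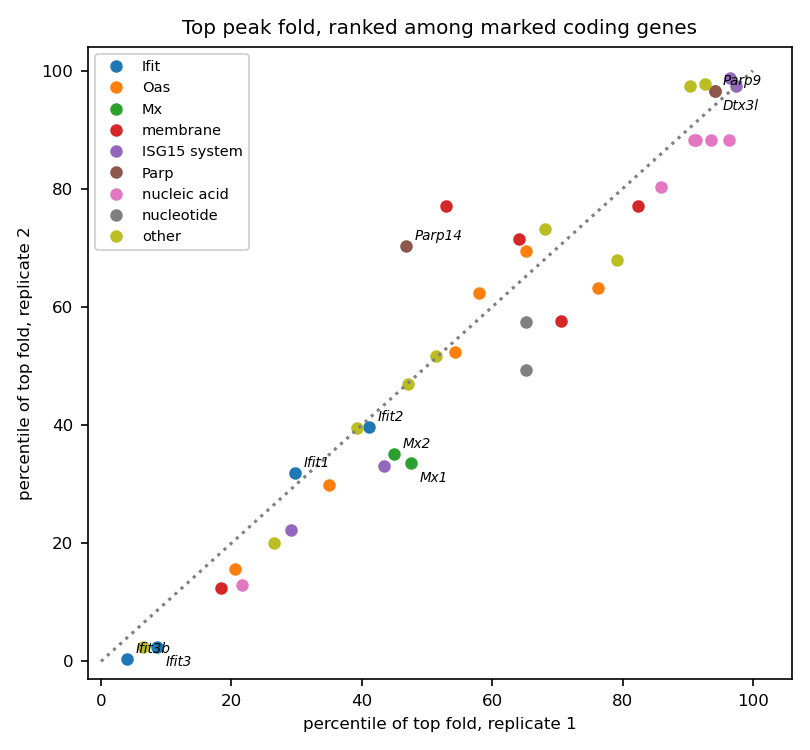
Percentile of the highest fold at each of the 41 marked antiviral genes in replicate 1 (horizontal) and replicate 2 (vertical), coloured by family, with the dotted line of equal values. The Ifit genes lie in the lower left, with Ifit3b at 3.98 and 0.442, and Parp9 and Dtx3l in the upper right at 94.2 and 96.6; Parp14 stands above the line at 46.8 in replicate 1 and 70.3 in replicate 2.

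The Ifit genes, a family whose first member binds viral RNA that lacks the cap methylation of host messages, had the narrowest domains and the lowest folds of the families. All 4 were marked, with a median width of 1489.25 bp and a median fold percentile of 18.1. At Ifit1 the domain spanned 2798 bp in replicate 1 and 2144 bp in replicate 2 (2471 ± 462 bp, SD, n = 2), with folds of 27.5 and 11.6 and a mean percentile of 30.8. Ifit2 had a short domain of 1187 and 910 bp (1048.5 ± 196 bp, SD, n = 2) with a moderate fold, 33.4 and 13.1, at percentile 40.4. At Ifit3 the replicates differed most, with 2874 bp in replicate 1 and 986 bp in replicate 2 (1930 ± 1335 bp, SD, n = 2). Its folds were 9.60 and 3.89, at percentiles 8.61 and 2.37. Ifit3b had the lowest rank of all 41 genes, with widths of 1057 and 676 bp (866.5 ± 269 bp, SD, n = 2), folds of 5.87 and 3.08, and percentiles 3.98 and 0.442. CpG ratios ran from 0.0895 at Ifit3b to 0.118 at Ifit1, and that of Ifit2 was 0.309. The domain at Ifit1 also covers the start of Ifit1bl2, a relative on the opposite strand, so the peak cannot be assigned to either gene alone.

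Ifit3 and Ifit3b are close copies: over 2000 bp around their starts the sequences were 91.3% identical, and from 250 bases before to 50 after the start they were 70.4% identical as aligned. How reads that fit both copies were treated is not given in the sources used here, and the part of this in their low folds was not tested. The ISRE core searched was GAAANNGAAA on either strand, in which N is any base, from 250 bases before to 50 bases after the principal start of each gene. Such a core was present at 18 of the 42 antiviral genes (42.9%), against 776 of the 21897 other coding genes (3.54%). A match describes letters and not a bound site. Ifit1, Ifit3 and Ifit3b each held 2 cores, and the stretches are shown here because Ifit3 and Ifit3b share theirs to the letter while their neighbour's differs. They are read on the plus strand of mm10 at chr19:34640770-34640828 for Ifit1, chr19:34583358-34583431 for Ifit3 and chr19:34607754-34607827 for Ifit3b, with each core in capitals.
Ifit1: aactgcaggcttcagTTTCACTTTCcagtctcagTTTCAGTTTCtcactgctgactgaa
Ifit3: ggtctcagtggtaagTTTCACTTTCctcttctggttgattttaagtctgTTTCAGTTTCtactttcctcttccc
Ifit3b: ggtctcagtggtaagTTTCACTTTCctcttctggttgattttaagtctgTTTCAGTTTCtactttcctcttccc
Ifit2 held no core in this window. Ifit1bl1, an unmarked relative that lies between Ifit3 and Ifit3b, held 1 core at position -123, so a core was also present without the mark.

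The Oas genes encode enzymes that sense double-stranded RNA and activate RNase L, and enzyme-like relatives of these. All were marked, 6 of 6. Their median width was 2299 bp and their median fold percentile 56.7. At Oas1a the domain was 1615 and 1535 bp wide in replicates 1 and 2 (1575 ± 56.6 bp, SD, n = 2), with folds of 39.0 and 15.3. Oas1g was alike, with 1717 and 1514 bp (1615.5 ± 144 bp, SD, n = 2) and folds of 30.3 and 11.2. From 250 bases before to 50 after the start, Oas1a and Oas1g were 75.1% identical. The treatment of reads that fit both is not known here either, and its part in their values was not tested. Oas2 had 3489 and 2093 bp (2791 ± 987 bp, SD, n = 2) and the highest percentile of the family, 69.7, from folds of 47.5 and 17.1. Oas3 had 2160 and 1820 bp (1990 ± 240 bp, SD, n = 2) with folds of 40.7 and 16.8. The OAS-like genes Oasl1 and Oasl2 lie apart from this cluster on the same chromosome. Oasl1, whose product limits translation of Irf7 in mice, had a wide domain of 3670 and 3127 bp (3398.5 ± 384 bp, SD, n = 2) and a low fold, 21.1 and 7.96, at percentile 18.1. Oasl2 had 2868 and 2348 bp (2608 ± 368 bp, SD, n = 2) with folds of 43.3 and 18.1, at percentile 67.4. Width and fold thus ranked these genes differently: the widest, Oasl1, had the lowest fold. CpG ratios were 0.166 at Oas1g, 0.188 at Oas3, 0.198 at Oas2, 0.207 at Oas1a, 0.274 at Oasl2 and 0.403 at Oasl1.

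The Oas cluster on chromosome 5 alternates marked and unmarked genes. From Oas2 the starts of Oas3, Oas1c, Oas1b, Oas1g and Oas1a lay under domains in both replicates, while Oas1e, Oas1f, Oas1h and Oas1d had no peak in either. Oas1b and Oas1c start close together on opposite strands and share a domain of 2162 bp in replicate 1 and 1886 bp in replicate 2, with folds of 44.6 and 19.5. The marked starts are 27808 bp (Oas3), 62661 bp (Oas1c), 137729 bp (Oas1g) and 157668 bp (Oas1a) from that of Oas2, with the unmarked starts of Oas1e at 45677 bp, Oas1f at 97514 bp and Oas1h at 111568 bp between them.

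**Figure D4:**
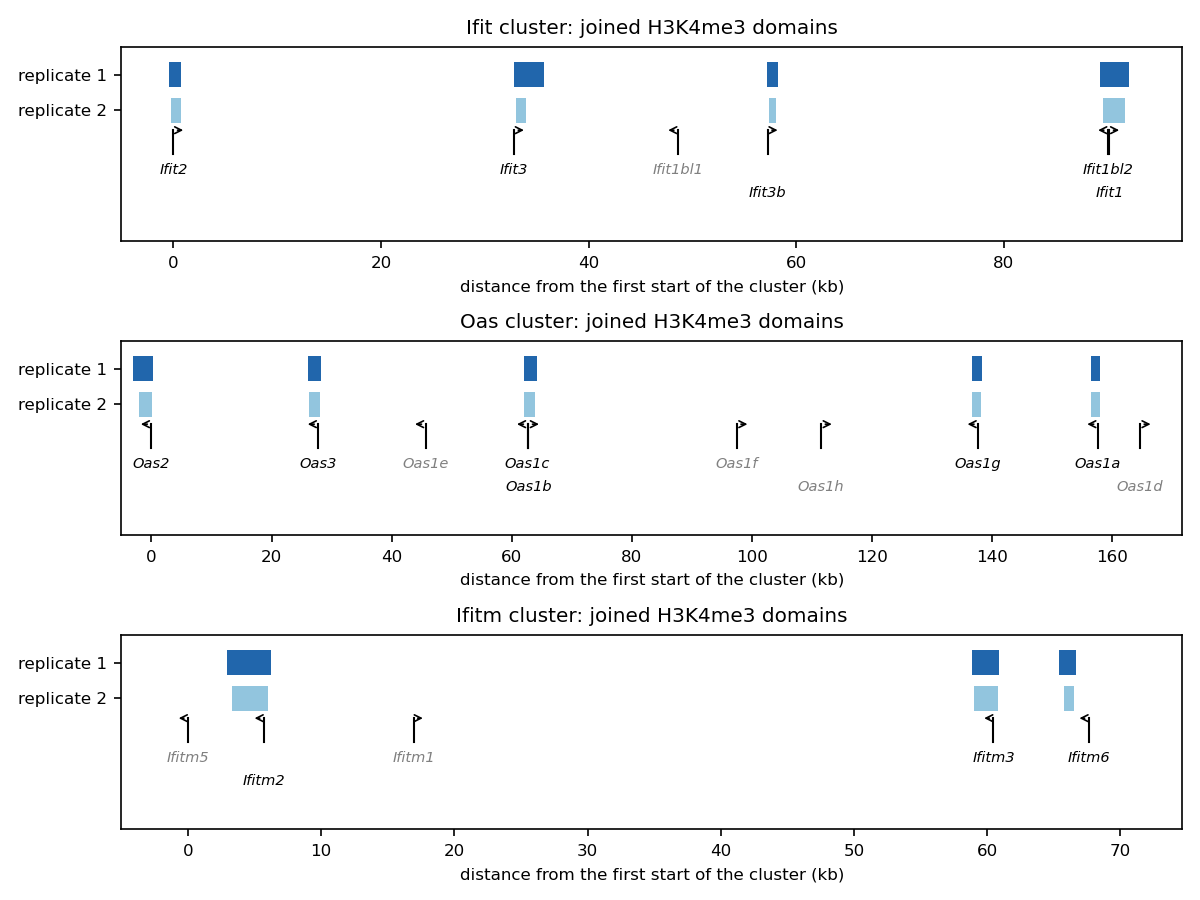
Joined H3K4me3 domains of replicate 1 (dark blue) and replicate 2 (light blue) along the Ifit, Oas and Ifitm clusters, as distance in kb from the first start of each cluster; arrows give the direction of transcription, and names of genes not marked in both replicates are grey. In the Oas cluster the domains stand at Oas2, Oas3, the shared start of Oas1c and Oas1b, Oas1g and Oas1a, and none at Oas1e, Oas1f, Oas1h or Oas1d.

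The start sequences of the Oas1 genes are shown because these close paralogs differ in marking. Each stretch runs 5′ to 3′ in the direction of its gene from 80 bases before to 10 bases after the principal start, with ISRE cores in capitals. The mm10 positions are chr5:120907512-120907601 on the minus strand for Oas1a, chr5:120887573-120887662 on the minus strand for Oas1g and chr5:120812555-120812644 on the plus strand for Oas1b. For the unmarked genes they are chr5:120795521-120795610 on the minus strand for Oas1e, chr5:120847287-120847376 on the plus strand for Oas1f and chr5:120861341-120861430 on the plus strand for Oas1h.
Oas1a: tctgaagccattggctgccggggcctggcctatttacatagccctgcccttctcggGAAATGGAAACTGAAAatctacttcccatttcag
Oas1g: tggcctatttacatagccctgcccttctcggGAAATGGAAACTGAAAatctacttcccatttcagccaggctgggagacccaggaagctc
Oas1b: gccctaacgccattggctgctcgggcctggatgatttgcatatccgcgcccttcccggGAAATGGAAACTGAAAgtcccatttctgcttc
Oas1e: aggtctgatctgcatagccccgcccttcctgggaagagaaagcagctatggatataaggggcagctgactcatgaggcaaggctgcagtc
Oas1f: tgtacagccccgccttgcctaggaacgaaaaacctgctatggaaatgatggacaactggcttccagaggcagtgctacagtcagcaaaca
Oas1h: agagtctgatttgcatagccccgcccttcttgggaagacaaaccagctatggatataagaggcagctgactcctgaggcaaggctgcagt
The marked Oas1a, Oas1g and Oas1b each hold a run of 2 overlapping cores, and Oas1c reads the same run from the other strand. The unmarked Oas1e, Oas1f and Oas1h hold none in the stretch shown or in the whole window searched, and neither does Oas1d, whose stretch is a simple repeat and is not shown. These are 8 genes of 1 cluster that share sequence, and the match is a description. From 250 bases before to 50 after the start, Oas1a was 69.4% identical to the marked Oas1b as aligned. With the unmarked Oas1d, Oas1e, Oas1f and Oas1h the identity was only 40.45 to 48.97%. The marked and unmarked promoters thus differ in more than the cores.

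Both Mx genes, encoding dynamin-like GTPases that trap viral nucleocapsids, carried wide domains with moderate folds. Mx1 had 3611 and 3351 bp in replicates 1 and 2 (3481 ± 184 bp, SD, n = 2), with folds of 36.2 and 12.03. Mx2 had 3630 and 3292 bp (3461 ± 239 bp, SD, n = 2), with folds of 35.1 and 12.3. Their widths lay at percentile 90.6 of marked genes of the lowest CpG quintile, to which both belong with ratios of 0.0643 at Mx1 and 0.0997 at Mx2. The sequences around their starts were 91.1% identical from 250 bases before to 50 after, and 68.4% identical over 2000 bp. The mean widths of Mx1 and Mx2 differed by less than the SD between replicates of either gene. How reads that fit both Mx copies were treated is not given in the sources used here, and its part in these values was not tested. In C57BL/6 mice Mx1 is known to carry a deletion, and Mx2 is annotated as a pseudogene.

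Genes of membrane proteins that act at virus entry or release were marked in 5 of 5 cases, with a median width of 2841 bp and a median fold percentile of 65.0. Bst2, which encodes tetherin, a protein that holds budding virions on the cell surface, had the widest domain and the highest percentile, with 3318 and 3103 bp (3210.5 ± 152 bp, SD, n = 2) and folds of 49.9 and 19.5 at percentile 79.7. Ifitm2 had 3290 and 2696 bp (2993 ± 420 bp, SD, n = 2) with folds of 45.2 and 16.1. Ifitm3, whose product blocks fusion of influenza virus in endosomes, had 2058 and 1798 bp (1928 ± 184 bp, SD, n = 2) with folds of 42.8 and 18.4. Ly6e, a surface protein gene, had 3154 and 2528 bp (2841 ± 443 bp, SD, n = 2) with folds of 38.5 and 19.4, and it ranked higher in replicate 2 (percentile 77.1) than in replicate 1 (52.9). Ifitm6 stood apart as narrow and low, with 1235 and 793 bp (1014 ± 313 bp, SD, n = 2) and folds of 19.2 and 7.05 at percentile 15.4. Its peak in replicate 2 reached the windows of starts 366 and 1016 bp downstream of the principal start but not that of the principal start itself. Of their neighbours, Ifitm1 and Ifitm5 had no peak in either replicate, and Ifitm7, which lies outside the cluster, had a peak of 870 bp in replicate 1 only. CpG ratios were 0.191 at Ifitm6, 0.262 at Ifitm3, 0.284 at Ifitm2, 0.350 at Ly6e and 0.383 at Bst2.

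The ISG15 system consists of a ubiquitin-like modifier and the enzymes that attach or remove it. The 4 of its genes listed here were all marked, with a median width of 3022.25 bp. Isg15, the modifier, had 3221 and 1936 bp (2578.5 ± 909 bp, SD, n = 2) with folds of 27.1 and 9.53, a percentile of 25.7. Usp18, which encodes the protease that removes ISG15 and also dampens the interferon receptor, had 3645 and 3287 bp (3466 ± 253 bp, SD, n = 2) with folds of 34.5 and 11.99, at percentile 38.2. The ligase genes ranked far above these. Herc6, which encodes the ISG15 ligase of mice, had a domain of 2216 and 2068 bp (2142 ± 105 bp, SD, n = 2) with folds of 58.9 and 27.3, at percentiles 96.5 and 98.7. Trim25, encoding a ligase that acts in RIG-I signalling, had 5463 and 5181 bp (5322 ± 199 bp, SD, n = 2) with folds of 60.2 and 25.8, at percentiles 97.5 and 97.4. Herc6 has a CpG ratio of 0.263 and Trim25 one of 0.558, so the 2 highest mean percentiles of the antiviral genes fell at ratios far apart. Isg15 and Usp18 have ratios of 0.224 and 0.491.

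Isg15 held the most cores at a principal start among the antiviral genes, 3 that overlap, and it is shown beside Bst2 and Usp18, the other genes of these groups with more than 1 core. The positions in mm10 are chr4:156200860-156200911 on the minus strand for Isg15, chr8:71537572-71537617 on the minus strand for Bst2 and chr6:121245808-121245871 on the plus strand for Usp18, with each core in capitals.
Isg15: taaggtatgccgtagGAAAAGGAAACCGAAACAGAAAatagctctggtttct
Bst2: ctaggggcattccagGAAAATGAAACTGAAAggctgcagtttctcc
Usp18: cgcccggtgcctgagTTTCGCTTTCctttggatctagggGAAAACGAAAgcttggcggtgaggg
Herc6 and Trim25, with the highest mean percentiles, held no core in the window searched. Over all marked antiviral genes, the 18 with a core had a median fold percentile of 55.3 and a median width of 2492.75 bp, against 65.0 and 2841 bp for the 23 without one. The median CpG ratios of these sets also differed, at 0.203 with a core and 0.263 without, and the part of this was not tested. Some of the 23, such as Oasl2 and Rtp4, held a core at another start that was marked.

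The Parp group, of ADP-ribosyltransferases and their partner ligase, had 3 of 3 genes marked, on 2 domains. Parp9 and Dtx3l, whose proteins form a complex, start on opposite strands within each other's window and share 1 domain, of 3228 bp in replicate 1 and 2493 bp in replicate 2 (2860.5 ± 520 bp, SD, n = 2). Its folds were 56.6 and 25.3, at percentiles 94.2 and 96.6. Parp14 had 4068 and 3760 bp (3914 ± 218 bp, SD, n = 2) with folds of 36.0 and 18.2, at percentiles 46.8 and 70.3. With the shared domain counted once, the median fold percentile of the group was 76.97, and counted once per gene it was 95.4. CpG ratios were 0.479 at Parp14, 0.512 at Parp9 and 0.530 at Dtx3l, all in the middle quintile, where the widths of these genes lay at percentile 90.1 or above.

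Genes that act on viral or cellular nucleic acids were marked in 6 of 6 cases, with a median width of 3003.75 bp and a median fold percentile of 89.7. Samhd1, which encodes a phosphohydrolase that depletes nucleotides for viral DNA synthesis, had a domain of 6393 bp in replicate 1 and 2629 bp in replicate 2 (4511 ± 2662 bp, SD, n = 2). The replicates differ here in what was joined: in replicate 2 the widest domain lay near a start annotated 5208 bp downstream of the principal start, apart from the peak at the principal start. Trex1, which encodes the exonuclease that clears cytosolic DNA, had 5217 and 2871 bp (4044 ± 1659 bp, SD, n = 2) with folds of 51.4 and 20.1, and its window also holds the start of Atrip. Apobec3, a cytidine deaminase gene active against retroviruses, had 4257 and 2978 bp (3617.5 ± 904 bp, SD, n = 2) with folds of 54.6 and 21.9. Samhd1, Adar and Apobec3 had the highest mean percentiles of the group, 92.3, 90.9 and 89.8, and Samhd1 had folds of 58.7 and 21.9. The top fold of replicate 2 was the same value, 21.9, at Samhd1, Adar, Apobec3 and Eif2ak2, which 36 peaks of that list carry, so these 4 genes are tied there. Isg20, an exonuclease gene, was low by contrast, at percentile 17.3. CpG ratios ran from 0.206 at Isg20 to 0.687 at Adar.

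Adar, which encodes the enzyme that edits adenosine in double-stranded RNA, was marked at separate promoters of unlike composition. Its first annotated start, with a CpG ratio of 0.687, had top folds of 20.6 in replicate 1 and 7.83 in replicate 2. Its principal start lies 15726 bp downstream with a CpG ratio of 0.309 and had folds of 56.2 and 21.9 in a domain of 2617 and 2163 bp (2390 ± 321 bp, SD, n = 2). The CpG-poorer start thus carried the higher fold in both replicates, and the quintile given to Adar is that of the other start. In human cells, the start of an interferon-inducible form of this gene is known to lie apart from the constitutive ones, and which form was transcribed here was not measured.

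Among the remaining marked genes, mean widths ran from 789 bp at Ifi27 to 5983.5 bp at Rnf213. Rsad2, encoding viperin, an enzyme that makes a chain-terminating nucleotide, had 3973 and 3030 bp (3501.5 ± 667 bp, SD, n = 2) with folds of 43.2 and 14.7. Its neighbour Cmpk2, a nucleotide kinase gene that starts on the opposite strand, had 2642 and 1495 bp (2068.5 ± 811 bp, SD, n = 2) with folds of 43.2 and 16.1. These starts have separate domains. Rnf213, a giant ligase gene, had the widest mean domain of all antiviral genes, 6509 and 5458 bp (5983.5 ± 743 bp, SD, n = 2), with folds of 55.5 and 26.1 at percentiles 92.6 and 97.7. In replicate 1 it spans chr11:119389682-119396190 of mm10, across the annotated start on the plus strand. Samd9l had 3980 and 2053 bp (3016.5 ± 1363 bp, SD, n = 2) with folds of 36.1 and 14.4. Xaf1, named for binding an inhibitor of apoptosis, had a narrower domain of 2338 and 1677 bp (2007.5 ± 467 bp, SD, n = 2) yet folds of 54.0 and 25.9, at percentiles 90.4 and 97.4. Lgals3bp, which encodes a secreted glycoprotein, had 2789 and 2430 bp (2609.5 ± 254 bp, SD, n = 2) with folds of 48.6 and 17.8. At the low end, Ifi27 had the narrowest domain of the 41, 990 and 588 bp (789 ± 284 bp, SD, n = 2), with folds of 7.88 and 3.89 at percentile 4.38. Ifi35, Trim30a and Sp100 had mean widths of 1556, 2514.5 and 2543.5 bp at percentiles 70.6, 39.4 and 23.3. Apart from Cmpk2, with a CpG ratio of 0.498, these promoters were poor in CpG: the ratio ran from 0.0486 at Trim30a to 0.290 at Rnf213, with Rsad2 at 0.171, Xaf1 at 0.159 and Lgals3bp at 0.147.

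Rtp4, which encodes a receptor transporter protein, was marked far from its annotated 5′ end. The first annotated start, which is also the principal one and whose window holds a start of Masp1, had no peak in either replicate. The domain, 3635 and 3349 bp wide (3492 ± 202 bp, SD, n = 2) with folds of 38.02 and 15.2, lay at 3 starts between 88766 and 89634 bp downstream. The stretch before the start 89628 bp downstream, at chr16:23609830-23609918 on the plus strand of mm10, held 4 ISRE cores, and is shown because the window at the principal start held none.
Rtp4: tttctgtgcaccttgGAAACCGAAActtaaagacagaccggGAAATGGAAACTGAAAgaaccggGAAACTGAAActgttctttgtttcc
When every annotated start was searched, 25 of 42 antiviral genes held a core, against 9.92% of other coding genes, which also have several starts each. The 7 genes gained were Oasl2, Mx2, Parp9, Parp14, Isg20, Samd9l and Rtp4.

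The share of promoters with an ISRE core exceeded that of other genes in the 3 lowest CpG quintiles. It was 7 of 13 antiviral genes (53.8%) against 4.84% of other genes in the lowest, 8 of 18 (44.4%) against 4.26% in the next, and 3 of 8 (37.5%) against 3.33% in the middle. The fourth quintile had 0 of 3 antiviral genes against 2.87%. Among the other coding genes, those with a core were marked in 10.8% of cases and those without in 6.60% in the lowest quintile, and in 53 of 186 (28.5%) and 922 of 4183 cases in the next. The middle quintile had 64.4% marked among genes with a core and 58.7% among those without, and the fourth had 76.2% and 76.7%. In the highest quintile the order was turned, with 77.4% marked among genes with a core and 82.5% among those without. The GAS motif TTCNNNGAA, the gamma-interferon activation site, was present at 10 of 42 antiviral genes (23.8%), against 8.26% of other coding genes. By quintile it was at 0 of 13 antiviral genes in the lowest, against 12.1% of other genes, and at 7 of 18 (38.9%) in the next, against 10.0%. The 2 motifs can overlap only in part and were counted separately.

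The domains extended into the gene more than away from it. At 38 of the 41 marked genes the widest domain reached the window of the principal start in both replicates. There the median extent was 1908.25 bp downstream and 398.75 bp upstream of the start, against 1226.5 bp and 644.75 bp at other marked coding genes. The other genes here were not matched for CpG ratio, and those whose window holds another gene's start were kept. The part of either in the extents was not tested. The downstream side was the longer at 35 of 38 antiviral genes (92.1%), against 80.02% of other genes. The peak point, the position that the authors' caller gave as the summit, lay downstream, by the mean of the replicates, at 36 of these 38 genes (94.7%), against 80.4% of 9980 other genes. Its median distance from the start was 355.25 bp, against 405 bp at other genes. The exceptions were Usp18, with the point at -285 and -293 bp, and Ifit1, at 114 bp in replicate 1 and -284 bp in replicate 2, under the domain shared with Ifit1bl2.

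**Figure D5:**
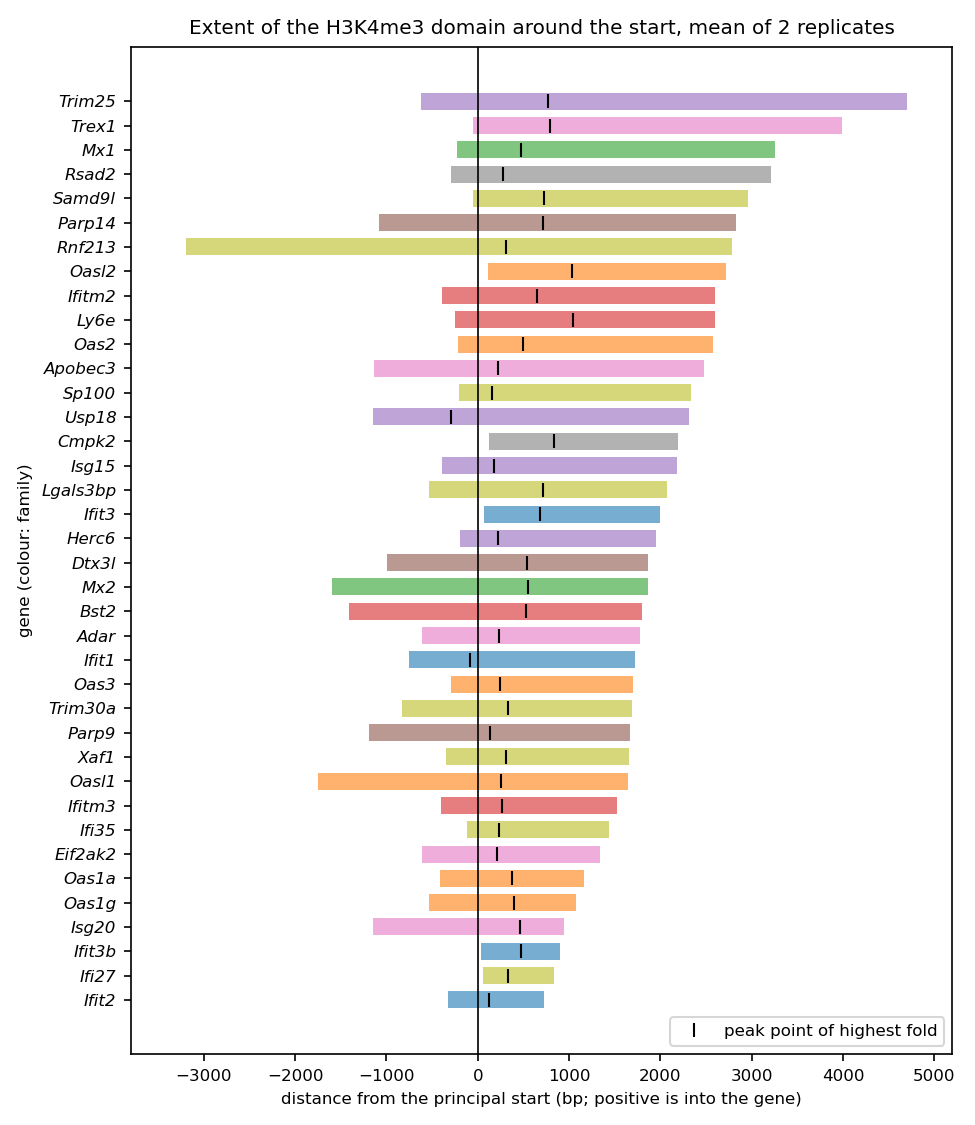
Extent of the H3K4me3 domain around the principal start (0 bp, positive into the gene) at 38 antiviral genes, as the mean of 2 replicates, coloured by family and sorted by downstream extent; the black tick is the peak point. Trim25 reaches farthest downstream, 4703 bp, Rnf213 farthest upstream, 3192 bp, and the ticks of nearly all genes lie to the right of the start.

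Close relatives of these genes carried the mark in fewer cases. Of 30 paralogs 13 (43.3%) were marked in both replicates, 1 (Ifitm7) had a peak in replicate 1 only and 16 had none, whereas 41 of 42 antiviral genes were marked. Both lists were drawn up with earlier results of these data known, and the part of that choice in this difference was not tested. As 26 of the paralogs lie in the 2 lowest CpG quintiles, the share of other coding genes weighted to their quintiles was 22.8%. In the lowest quintile 5 of 13 paralogs were marked, against 6.81% of other coding genes. The marked ones were Ifit1bl2, Oas1b, Oas1c, Trim30b, Trim30c, Trim30d, Parp10, Parp11, Parp12, Zc3hav1, Ifi27l2a, Apobec1 and Adarb1. The widest were Apobec1, which encodes an RNA-editing deaminase, with 9449 and 7140 bp, Zc3hav1, the gene of the zinc-finger antiviral protein, with 4892 and 4103 bp, and Parp12 with 4348 and 3336 bp. Several unmarked ones belong to tissues other than blood in their known roles, such as the muscle gene Apobec2 and the bone gene Ifitm5. Whether this bears on their marking was not tested. Ifi44l, the neighbour of Ifi44, had no peak in either replicate, so both genes of that pair were weak or absent. Of the marked paralogs 5 of 13 held an ISRE core, against 1 of the 17 others. These are not separate sites: Oas1b and Oas1c share their cores and their domain, and Ifit1bl2 shares both with the antiviral gene Ifit1.

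The pathway that controls these genes was itself marked from receptor to transcription factor. The 4 receptor genes (Ifnar1, Ifnar2, Ifngr1 and Ifngr2), 5 kinase genes (Jak1, Jak2, Tyk2, Tbk1 and Ikbke), 8 transcription factor genes (Stat2, Irf9, Irf1, Irf2, Irf3, Irf5, Irf7 and Irf8), 5 genes of sensors and their adaptors (Ddx58, Ifih1, Mavs, Cgas and Tmem173) and 2 feedback inhibitor genes (Socs1 and Socs3) were all marked in both replicates. Of these 24 genes 20 lie in the 3 highest CpG quintiles, and the share of other coding genes weighted to their quintiles was 64.2%. None of the 7 interferon genes examined had a peak in either replicate: Ifnb1, Ifna1, Ifna2, Ifna4, Ifna5, Ifnk and Ifne. All 7 lie in the 2 lowest CpG quintiles, where the share of other genes weighted in the same way was 13.5%, so 0 of 7 is near the background. Of the factor genes, Irf2, Irf5 and Irf8 had the widest domains, at 4613.5, 4529.5 and 3881 bp. Socs1 and Socs3, which encode inhibitors of JAK signalling, were narrow, with 1799 and 1762 bp in replicate 1 and 468 and 445 bp in replicate 2. Irf9 and Irf7 were the 2 factor genes in a low CpG quintile, with ratios of 0.265 and 0.262, and Irf7 ranked at percentile 96.3.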

How the data were processed

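H3K4me3 peak lists of 2 replicates (1 group) were analysed, with the authors' pooled and replicated lists as alternatives. Per the labels the assembly is mm10, and GRCm38.p6 sequence and GENCODE M21 were used. Which aligner and peak caller were used is not given in the sources used here. Each deposited peak has a display score (not used), a fold (a ratio), −log10 p and −log10 q, and, as the other deposited value, the offset of its peak point. The fold was used only within a list. No read counts were used, so no precision from depth can be given.

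Windows, joining and percentiles are as given with the results. The principal start is that of the transcript of lowest APPRIS level (the most upstream), or else the gene's 5′ end. Python 3.11.15, pandas 2.3.3 and Biopython 1.88 were used, and the overlap code was checked on simulated peaks. Genes and lists were chosen with earlier results of these data known. By the naming rule every antiviral gene is named, with full values for the families and for the 3 widest, the 3 of highest percentile and the unmarked genes of the larger groups. Marked paralogs, unmarked pathway genes and the 3 widest of each are named. Rtp4's and Adar's starts and Ifi35, Trim30a and Sp100 were described after their values were seen. There was no comparison between conditions and no test. Some genes of the marker and pathway lists are not reported here.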

Additional observations from a re-analysis of the deposited data

How the results depend on the processing

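Marking, set at 41 of 42 genes, ranged from 39 (1 start per gene, which lost Ifitm6 and Rtp4) to 42 (pooled and replicated lists) over the alternatives that kept all 42. With the 15000 peaks of highest −log10 p it was 40, without Ifit3b, and leaving out 1 replicate gave 41 to 42. Without genes whose window holds another coding gene's start, an alternative chosen after seeing the data, 35 of 36 were marked. Median width stayed within 2163 to 2881.5 bp over 12 alternatives, above the other genes' median in each. The fold percentile of 60.2 moved by more than the SD of the replicate medians, 0.289, in most settings: 58.9 with the 15000 peaks, 54.1 in the pooled list, 52.8 in the replicated list and 67.4 for the peak nearest the principal start. Without a replicate it was 56.1 to 57.6. Without the genes of shared windows it was 58.6. The other genes' median stayed between 46.5 and 52.1, so the direction held in these settings while the size did not. In the lowest CpG tertile 25 of 26 antiviral genes were marked (96.2%), against 11.8% of other genes, where the lowest quintile had 100%. An ISRE core was held by 28 genes over 1000 bases on either side of the start (22.6% of other genes) and by 4 when 2 overlapping cores were asked for, a further copy of GAAA following after 2 bases (0.146%). The search of every annotated start was also added after seeing the data. No paired analysis was possible because there is 1 group and no test. Depth is unknown, and a weak peak such as that of Ifi44 may be called or missed with it, which was not tested.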
